A study of Homo sapiens with 6 samples.

Results

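A set of 37 genes of the NRF2 antioxidant response, glutathione metabolism, iron handling and ferroptosis was followed in 3 lines of the triple-negative breast cancer line MDA-MB-231. The members were chosen by gene symbol, with earlier results of these data known, and all 37 were found among the 61806 genes of the deposited table. The lines were shNC, the control, and shHMGA2-1 and shHMGA2-2, in which a lentiviral TRC2-pLKO hairpin against HMGA2, a chromatin protein that bends AT-rich DNA, had been introduced under puromycin selection. Per the methods, infected cells were grown out from a single clone, and this is not stated for shNC, so an effect of a hairpin and any other difference between lines cannot be told apart. RNA of 2 samples per line was sequenced after mRNA capture. No source says whether the 2 samples of a line were separate cultures, so that p-values measure the spread between these samples, which may be technical. The titles gave the groups, while the controls' library names carry WT and those of shHMGA2-1 carry SH2.

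NRF2, the product of NFE2L2, is a transcription factor that KEAP1 normally marks for degradation. When oxidants or electrophiles modify KEAP1, NRF2 accumulates and binds antioxidant response elements near genes for glutathione synthesis, thioredoxin, NADPH supply, iron storage and drug export. Glutathione is made from glutamate, cysteine and glycine, and the cystine that supplies the cysteine enters through the transporter formed by SLC7A11 and SLC3A2. Ferroptosis is a form of cell death driven by iron-dependent peroxidation of membrane lipids. GPX4 uses glutathione to reduce lipid peroxides, ACSL4 supplies the polyunsaturated lipids that are peroxidised, and AIFM2 (FSP1) protects membranes without glutathione. NRF2 is controlled largely at the protein level, and protein was not measured in these data.

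The libraries held 16461178 to 17167293 counts. Levels between lines are given as CPM, counts scaled to the library total, after TMM normalization, and levels between genes as the deposited FPKM, which divide by exonic length. HMGA2 itself stood at 131 and 133 CPM in shNC, 49.5 and 58.3 in shHMGA2-1 and, in shHMGA2-2, 25.7 and 27.6, a log2 fold change against shNC of -1.29 ± 0.09 (SE, adjusted p = 2.17e-11) in shHMGA2-1 and -2.31 ± 0.09 (SE, adjusted p = 2.11e-16) in shHMGA2-2. VIM, CD44 and AXL, mesenchymal genes typical of this line, were high in every library, whereas CDH1, KRT5, KRT14, PTPRC, CD3E, PDGFRA, DCN and LUM were below 0.24 CPM in all 6. EPCAM was at 7.63 to 17.8 CPM, PDGFRB at 0.53 to 4.01, ITGAM at up to 0.946, ESR1 at up to 0.738, CD14 at up to 0.473 and PGR at up to 0.123. ERBB2, on the list of receptors low in these cells, was at 69.3 to 110.04 CPM. In bulk RNA, fewer cells of a kind and less RNA per cell cannot be told apart.

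Most of the 37 genes that moved were lower in the knockdown lines, and SLC7A11, which imports cystine, had the largest decrease in both. In shHMGA2-1 against shNC, 20 members fell and 3 rose (edgeR, adjusted p under 0.05), that is 54.1% and 8.11% of members beside 17.6% and 15.8% of the 16110 genes tested. At 2-fold or more, 3 fell and 0 rose, beside 3.59% and 4.89% of all tested genes. No member rose 2-fold at an unadjusted p under 0.05 in edgeR (0 genes) or at an adjusted p under 0.05 in DESeq2 (0 genes). In shHMGA2-2 against shNC, 21 members fell and 8 rose, 56.8% and 21.6% of members, beside 29.2% and 29.5% of all tested genes. Of these, 9 fell and 2 rose by 2-fold or more, beside 9.65% and 11.7% of all tested genes. Under upper quartile scaling the lower share of all calls in shHMGA2-1 went from 52.8% to 41.2% over all genes and from 87.0% to 82.6% over members. The share of members that rose in either line was thus below that of all genes and the share that fell was above it. Because the members were chosen with earlier results of these data known, that difference describes the chosen genes and is not a test. The median log2 fold change of the members was -0.37 in shHMGA2-1 and -0.45 in shHMGA2-2, against 0.01 and 0.03 over all genes tested.

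**Figure D1:**
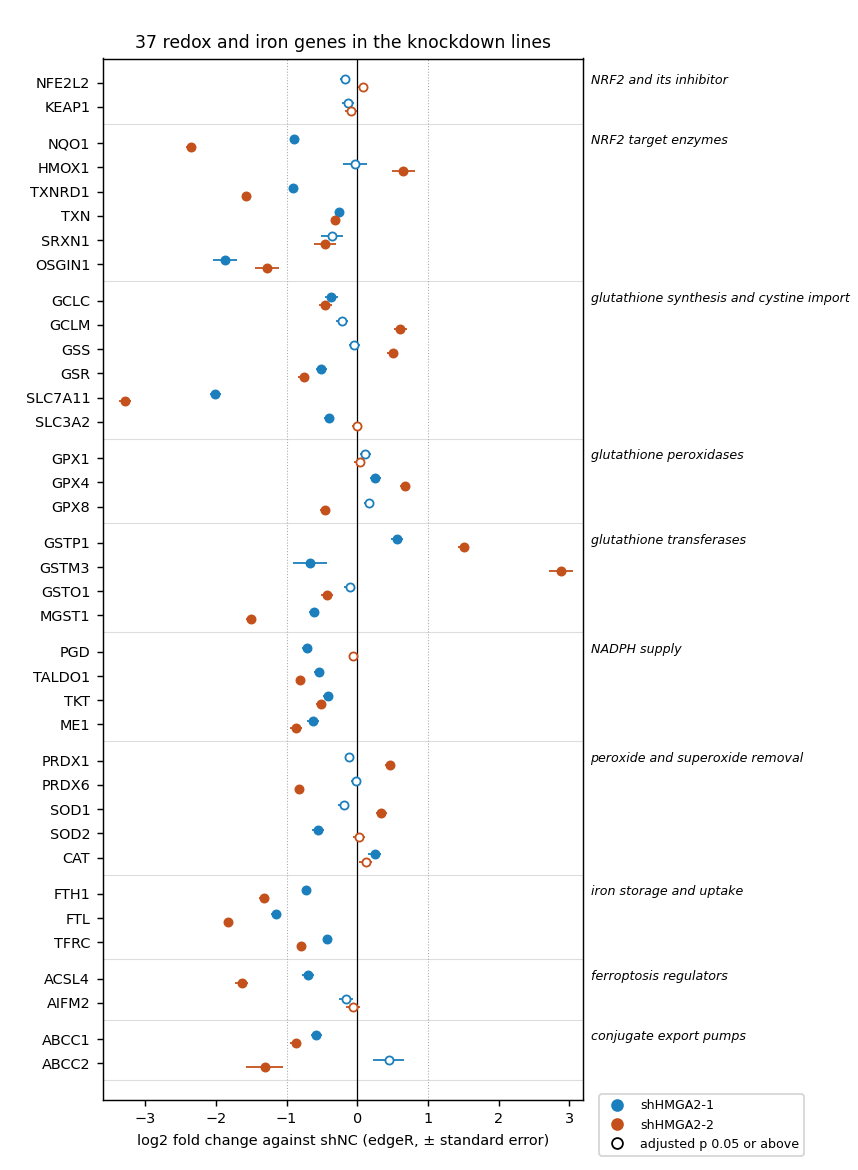
Log2 fold change against shNC (horizontal axis, ± standard error) of the 37 genes, grouped by role, in shHMGA2-1 and shHMGA2-2 with 2 libraries per line. Filled points had an adjusted p under 0.05 in edgeR, dotted lines mark a 2-fold change, and 16 genes have both points filled and left of 0.

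Both comparisons use the same shNC libraries, so their calls are not independent. Side by side, 16 members were lower in both lines: NQO1, TXNRD1, TXN, OSGIN1, GCLC, GSR, SLC7A11, MGST1, TALDO1, TKT, ME1, FTH1, FTL, TFRC, ACSL4 and ABCC1. Over all tested genes 12.6% had that pattern. GPX4 and GSTP1 were higher in both, a pattern of 9.93% of all tested genes. GSTM3 was lower in shHMGA2-1 and higher in shHMGA2-2, a pattern of 1.59% of all tested genes. SLC3A2, PGD and SOD2 were lower, and CAT higher, in shHMGA2-1 without a call in shHMGA2-2, beside 3.49% and 4.3% of all tested genes. In shHMGA2-2 alone, HMOX1, GCLM, GSS, PRDX1 and SOD1 were called higher and SRXN1, GPX8, GSTO1, PRDX6 and ABCC2 lower. Those patterns held for 18% and 15.1% of all tested genes. NFE2L2, KEAP1, GPX1 and AIFM2 were called in neither, beside 33.5% of all tested genes. As a share of all counts, the 37 genes together made up 1.14% and 1.12% in shNC, 0.777% and 0.742% in shHMGA2-1 as against 0.665% and 0.686% in shHMGA2-2, and without FTL 0.864% and 0.85% in shNC, 0.637% and 0.624% in shHMGA2-1 as against 0.584% and 0.598% in shHMGA2-2.

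NRF2 acts through the antioxidant response element, and members were chosen in part as genes of the NRF2 response. An excess of the element's letters among them may therefore follow from the choice. The core of the element, TGACNNNGC on either strand, was searched in RefSeq promoters (GRCh38.p14, 250 bases before to 50 after each start). There 28 of the 37 genes were matched, with 40 promoters. The remaining members had no promoter entry and were not searched, so a gene not named below may lack the letters or may not have been searched. The core letters occurred in 11 of the 40 promoters (27.5%), those of KEAP1, TXNRD1, GCLM, SLC3A2, GSTP1, GSTO1, MGST1, PGD, ME1 and AIFM2, against 13.3% of all 35116 promoters. The full letters TGACTCAGC, which also contain the AP-1 letters TGACTCA, occurred in 4 of the 40, against 197 of all promoters (0.561%). In the 179 promoters matched to the further pathway lists the core stood in 16.8% and the full letters in 1 (0.559%). Those 4 promoters are shown because the same 9 letters stood before genes that behaved differently: ME1 fell in both lines, GSTP1 rose in both, SLC3A2 fell in shHMGA2-1 alone, and AIFM2 was called in neither. Capitals mark the letters or, where they lie on the other strand, their reverse complement.
SLC3A2 (chr11:62881449-62881748, plus strand): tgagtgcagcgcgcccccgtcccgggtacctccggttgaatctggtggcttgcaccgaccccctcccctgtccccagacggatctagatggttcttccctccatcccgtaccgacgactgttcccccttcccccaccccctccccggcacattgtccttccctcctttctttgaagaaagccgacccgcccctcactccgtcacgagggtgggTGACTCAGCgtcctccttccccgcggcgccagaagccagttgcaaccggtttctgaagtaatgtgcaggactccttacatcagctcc
GSTP1 (chr11:67583562-67583861, plus strand): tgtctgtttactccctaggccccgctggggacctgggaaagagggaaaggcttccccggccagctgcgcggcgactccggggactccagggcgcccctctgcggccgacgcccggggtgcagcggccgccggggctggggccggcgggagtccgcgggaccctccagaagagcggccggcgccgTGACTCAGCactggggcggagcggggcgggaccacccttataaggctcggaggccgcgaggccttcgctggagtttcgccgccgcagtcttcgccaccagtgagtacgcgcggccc
ME1 (chr6:83431002-83431301, minus strand): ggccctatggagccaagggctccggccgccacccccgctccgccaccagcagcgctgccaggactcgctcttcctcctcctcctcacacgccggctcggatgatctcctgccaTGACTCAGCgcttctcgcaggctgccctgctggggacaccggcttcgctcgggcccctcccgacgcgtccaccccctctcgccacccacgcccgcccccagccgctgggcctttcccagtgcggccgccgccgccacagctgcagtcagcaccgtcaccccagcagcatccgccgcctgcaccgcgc
AIFM2 (chr10:70132776-70133075, minus strand): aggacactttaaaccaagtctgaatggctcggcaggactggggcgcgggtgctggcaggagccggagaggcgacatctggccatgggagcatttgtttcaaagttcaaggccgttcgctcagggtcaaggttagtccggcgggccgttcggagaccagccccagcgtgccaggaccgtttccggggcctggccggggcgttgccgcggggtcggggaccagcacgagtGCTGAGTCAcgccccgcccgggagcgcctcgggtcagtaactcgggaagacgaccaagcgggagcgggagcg
The first base of the match lay 37 bases before the start in SLC3A2, 66 in GSTP1, 137 in ME1 and 22 in AIFM2. A letter match is not a measured binding site, and windows farther from the start were not searched.

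NFE2L2, which encodes NRF2, stood at 166 and 177 CPM in shNC, 153 and 152 in shHMGA2-1 and, in shHMGA2-2, 179.6 and 182. Its values were slightly lower in shHMGA2-1 and close to shNC in shHMGA2-2, with log2 fold changes of -0.17 ± 0.07 (SE, adjusted p = 0.0543) and 0.08 ± 0.07 (SE, adjusted p = 0.352). In shHMGA2-1 the adjusted p fell to 0.0363 without shHMGA2-1 replicate 1 and to 0.044 without replicate 2, and with all 6 libraries it was 0.0424 with RLE scaling and 0.0441 in DESeq2. In shHMGA2-2 it was 0.0167, as higher, with upper quartile scaling, so the NFE2L2 calls depend on the scaling. NFE2L2 shares exon bases with AGPS on the opposite strand, which had 2728 to 3704 counts, and the strand setting of the counting is not given in the sources used here. KEAP1, the adaptor that targets NRF2 for degradation, was at 88.3 and 91 CPM in shNC, 88.1 and 74.8 in shHMGA2-1 and, in shHMGA2-2, 81.3 and 87.4, with log2 fold changes of -0.14 ± 0.08 (SE, adjusted p = 0.225) and -0.09 ± 0.08 (SE, adjusted p = 0.384). Without shHMGA2-1 replicate 1 its adjusted p in that line was 0.00855. With TMM scaling and all 6 libraries, neither gene passed the edgeR test in either line.

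Among the NRF2 target enzymes, 4 of 6 fell in shHMGA2-1 (66.7%, beside 17.6% of all tested genes). In shHMGA2-2 5 fell and 1 rose (83.3% and 16.7%, beside 29.2% and 29.5% of all tested genes). NQO1 (ENSG00000181019, chromosome 16, 69706996 to 69726668, minus strand) encodes a quinone reductase widely used as a readout of NRF2 activity. Its level was 644 and 613 CPM in shNC, 352 and 326 in shHMGA2-1 and, in shHMGA2-2, 118 and 126. The 3 lines did not overlap, and each step was downwards from shNC to shHMGA2-1 to shHMGA2-2. NQO1 was 1.85-fold lower in shHMGA2-1 and 5.13-fold lower in shHMGA2-2, log2 fold changes of -0.89 ± 0.06 (SE, adjusted p = 7.64e-11) and -2.36 ± 0.07 (SE, adjusted p = 5.41e-19). TXNRD1, the selenoprotein that keeps thioredoxin reduced, had 1576 and 1539.7 CPM in shNC, 814 and 847 in shHMGA2-1 and, in shHMGA2-2, 541 and 502, and fell by the same order of lines, with log2 fold changes of -0.91 ± 0.06 (SE, adjusted p = 8.86e-12) and -1.58 ± 0.06 (SE, adjusted p = 5.04e-17). Its substrate TXN, at 349 and 322 CPM in shNC, 285 and 277 in shHMGA2-1 and, in shHMGA2-2, 270.2 and 271, fell less. The TXN log2 fold changes were -0.26 ± 0.06 (SE, adjusted p = 0.00286) and -0.31 ± 0.06 (SE, adjusted p = 0.000195), and the first had an adjusted p of 0.127 without shNC replicate 1.

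OSGIN1, an oxidative-stress-induced growth inhibitor, was the only member of the 16 lower in both lines whose decrease was larger in shHMGA2-1. Its level was 14.4 and 14.3 CPM in shNC, 3.75 and 4.07 in shHMGA2-1 and, in shHMGA2-2, 5.14 and 6.65, with log2 fold changes of -1.87 ± 0.17 (SE, adjusted p = 6.4e-09) and -1.28 ± 0.16 (SE, adjusted p = 3.38e-07). SRXN1, which repairs overoxidised peroxiredoxins, stood at 10.7 and 10.5 CPM in shNC, 7.72 and 8.72 in shHMGA2-1 and, in shHMGA2-2, 7.27 and 8.09, and only the lower level in shHMGA2-2 passed the test (-0.46 ± 0.16 SE, adjusted p = 0.014). That call had an adjusted p of 0.0632 without shNC replicate 1, 0.0515 without shNC replicate 2, 0.101 without shHMGA2-2 replicate 1, 0.0605 with upper quartile scaling and 0.107 in DESeq2. HMOX1, the haem-degrading enzyme that is also induced by NRF2, went the other way. Its level was 7.57 and 9.05 CPM in shNC, 9.05 and 7.13 in shHMGA2-1 and, in shHMGA2-2, 12.3 and 13.8, not called in shHMGA2-1 (-0.04 ± 0.17 SE, adjusted p = 0.899) and higher in shHMGA2-2 (0.65 ± 0.16 SE, adjusted p = 0.00109). Thus the 6 target enzymes did not move as a block, and the low-count members OSGIN1, SRXN1 and HMOX1 were each below 15 CPM in every library.

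**Figure D2:**
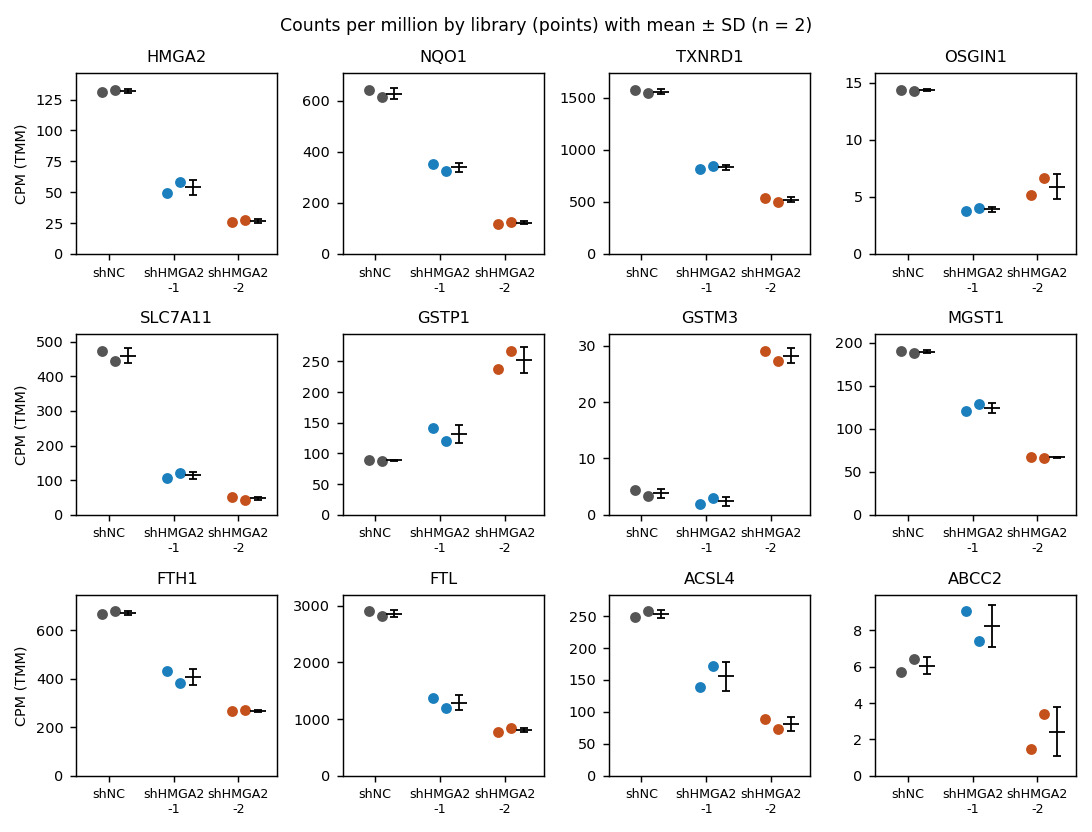
CPM after TMM (vertical axes, each from 0) in the 2 libraries of each line for HMGA2 and the 11 members called with at least a 2-fold change in a comparison of lines, with mean ± SD beside the points. NQO1, TXNRD1, SLC7A11, MGST1, FTH1, FTL and ACSL4 step down from shNC to shHMGA2-2 without overlap, and GSTP1 steps up.

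The largest change against shNC was in SLC7A11 (ENSG00000151012, chromosome 4, 138164097 to 138242349, minus strand), the cystine-glutamate antiporter that limits glutathione synthesis. SLC7A11 stood at 474 and 444 CPM in shNC, 107 and 121 in shHMGA2-1 and, in shHMGA2-2, 50.6 and 43.5. All libraries of the knockdown lines were below those of shNC, and those of shHMGA2-2 were below those of shHMGA2-1. The gene was 4.03-fold lower in shHMGA2-1 and 9.76-fold lower in shHMGA2-2, log2 fold changes of -2.01 ± 0.08 (SE, adjusted p = 1.37e-15) and -3.29 ± 0.08 (SE, adjusted p = 4.65e-20). An antisense transcript, SLC7A11-AS1, shares exon bases with it and held 10 to 41 counts, against 759 to 7706 for SLC7A11. SLC3A2, the heavy chain that brings the transporter to the membrane and also serves other amino acid carriers, did not follow. It had 208 and 209.6 CPM in shNC, 164 and 152 in shHMGA2-1 and, in shHMGA2-2, 205 and 211, lower in shHMGA2-1 (-0.40 ± 0.07 SE, adjusted p = 4.76e-05) and close to shNC in shHMGA2-2 (-0.01 ± 0.07 SE, adjusted p = 0.936). The ratio of SLC7A11 to SLC3A2 in FPKM was 1.51 and 1.41 in shNC, 0.433 and 0.525 in shHMGA2-1 as against 0.164 and 0.137 in shHMGA2-2.

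The subunits of glutamate-cysteine ligase, which makes the first bond of glutathione, also parted. GCLC, the catalytic subunit, stood at 51.1 and 51.4 CPM in shNC, 38.2 and 41.2 in shHMGA2-1 and, in shHMGA2-2, 37.8 and 37.2, and fell in both lines (-0.37 ± 0.09 SE, adjusted p = 0.00277 and -0.45 ± 0.09 SE, adjusted p = 0.000162). GCLM, the modifier subunit, had 161 and 159 CPM in shNC, 119 and 156 in shHMGA2-1 and, in shHMGA2-2, 242 and 246, with a rise in shHMGA2-2 (0.61 ± 0.09 SE, adjusted p = 1.53e-06). In shHMGA2-1, whose 2 libraries lay far apart for this gene, the GCLM log2 fold change was -0.22 ± 0.09 (SE, adjusted p = 0.0573), and it passed as lower without shHMGA2-1 replicate 2 (adjusted p = 3.69e-06), with RLE scaling (0.0447) and with no filter on low counts (0.00875). Within a library the FPKM ratio of GCLC to GCLM was 0.2 and 0.204 in shNC, 0.202 and 0.166 in shHMGA2-1 as against 0.098 and 0.0954 in shHMGA2-2, so the control lay above both shHMGA2-2 libraries but overlapped shHMGA2-1. GSS, which adds glycine, rose in shHMGA2-2 alone, with 98.5 and 92.5 CPM in shNC, 97.6 and 87.8 in shHMGA2-1 and, in shHMGA2-2, 133 and 138, and a log2 fold change of 0.50 ± 0.08 (SE, adjusted p = 4.5e-06) in that line. GSR, which regenerates reduced glutathione with NADPH, fell in both (-0.51 and -0.76, adjusted p = 1.76e-05 and 1.45e-08). Of the 6 genes of synthesis and import, 4 fell in shHMGA2-1 (66.7%, beside 17.6% of all tested genes). In shHMGA2-2 3 fell and 2 rose (50% and 33.3%, beside 29.2% and 29.5% of all tested genes), so the share that rose was near that of all genes.

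**Figure D3:**
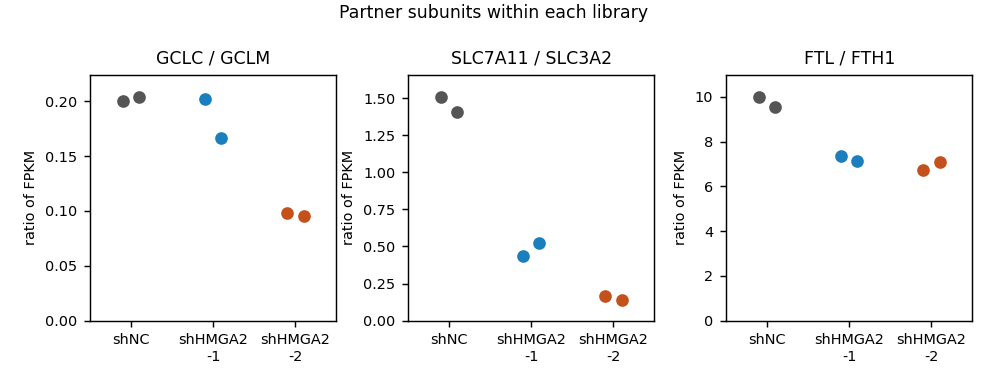
Ratio of FPKM (vertical axes, from 0) between partner subunits in each of the 2 libraries per line. The SLC7A11 to SLC3A2 ratio falls from 1.41 or more in shNC to 0.164 or less in shHMGA2-2, GCLC to GCLM separates shHMGA2-2 alone, and FTL to FTH1 is lower in all 4 knockdown libraries than in shNC.

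Glutathione peroxidases were not among the genes that fell in both lines. GPX4, the enzyme that reduces phospholipid hydroperoxides, had 112 and 119 CPM in shNC, 141 and 135 in shHMGA2-1 and, in shHMGA2-2, 181 and 189. Its libraries rose in the order shNC, shHMGA2-1, shHMGA2-2 without overlap, with log2 fold changes of 0.26 ± 0.07 (SE, adjusted p = 0.00663) and 0.68 ± 0.07 (SE, adjusted p = 1.1e-08). The first of these had an adjusted p of 0.159 without shNC replicate 1. GPX1, the abundant cytosolic peroxidase, was called in neither line (0.11 ± 0.08 SE, adjusted p = 0.288 and 0.03 ± 0.08 SE, adjusted p = 0.752), although without shHMGA2-1 replicate 2 it passed in shHMGA2-1 with an adjusted p of 0.0297. GPX8, a peroxidase of the endoplasmic reticulum, was at 164 and 161 CPM in shNC, 175 and 191 in shHMGA2-1 and, in shHMGA2-2, 123 and 113, and fell in shHMGA2-2 alone (-0.46 ± 0.07 SE, adjusted p = 7.34e-06). In shHMGA2-1 its log2 fold change was 0.17 ± 0.07 (SE, adjusted p = 0.068), and without shHMGA2-1 replicate 1 the adjusted p was 0.00596, with upper quartile scaling 0.0107 and with the FPKM filter 0.0493, each as higher.

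The glutathione transferases, which attach glutathione to electrophiles, moved in both directions. GSTP1 (ENSG00000084207, chromosome 11, 67583742 to 67586656, plus strand), the pi-class enzyme, had 89.8 and 88.3 CPM in shNC, 141 and 121 in shHMGA2-1 and, in shHMGA2-2, 237 and 268. It was 1.47-fold higher in shHMGA2-1 and 2.84-fold higher in shHMGA2-2, log2 fold changes of 0.56 ± 0.08 (SE, adjusted p = 7.52e-06) and 1.50 ± 0.08 (SE, adjusted p = 6.22e-14). MGST1, a microsomal transferase with peroxidase activity, went the other way. MGST1 stood at 191 and 189 CPM in shNC, 120.4 and 129 in shHMGA2-1 and, in shHMGA2-2, 66.9 and 66.6, with log2 fold changes of -0.61 ± 0.07 (SE, adjusted p = 2.3e-07) and -1.51 ± 0.07 (SE, adjusted p = 7.86e-15). GSTM3, of the mu class, was low in shNC and shHMGA2-1 and higher in shHMGA2-2, at 4.37 and 3.26 CPM in shNC, 1.84 and 2.95 in shHMGA2-1 and, in shHMGA2-2, 29.1 and 27.2. There it was 7.37-fold higher than in shNC (2.88 ± 0.17 SE, adjusted p = 3.43e-13). The decrease in shHMGA2-1 (-0.67 ± 0.24 SE, adjusted p = 0.0326) had an adjusted p of 0.311 without shHMGA2-1 replicate 1, 0.312 without shNC replicate 1, 0.0622 and 0.0604 without either shHMGA2-2 replicate, 0.0515 with upper quartile scaling and 0.0725 in DESeq2. Genes of the mu class are close copies, so reads may have been split or lost between them. GSTO1, of the omega class, fell in shHMGA2-2 alone (-0.43 ± 0.08 SE, adjusted p = 5.49e-05).

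The genes of NADPH supply and the pentose phosphate pathway fell, with a single exception in shHMGA2-2. All 4 were called lower in shHMGA2-1 and 3 of 4 in shHMGA2-2, beside 17.6% and 29.2% of all tested genes. ME1, the cytosolic malic enzyme, had 73.2 and 74.7 CPM in shNC, 45.7 and 49.7 in shHMGA2-1 and, in shHMGA2-2, 41.5 and 39.6, with log2 fold changes of -0.63 ± 0.09 (SE, adjusted p = 3.04e-06) and -0.87 ± 0.09 (SE, adjusted p = 7.06e-09). TALDO1 and TKT, of the non-oxidative branch, fell in both lines, TALDO1 with -0.55 and -0.81 and TKT with -0.42 and -0.52 on the log2 scale, each with an adjusted p of 4.54e-05 or less. PGD, which yields NADPH directly, parted from them. It stood at 216 and 216 CPM in shNC, 129 and 134 in shHMGA2-1 and, in shHMGA2-2, 213 and 202, a log2 fold change of -0.72 ± 0.07 (SE, adjusted p = 7.04e-09) in shHMGA2-1 and -0.06 ± 0.07 (SE, adjusted p = 0.468) in shHMGA2-2.

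Enzymes that remove peroxide and superoxide gave no common direction. PRDX6, a peroxiredoxin that also acts on phospholipids, was close to shNC in shHMGA2-1 and lower in shHMGA2-2, at 301 and 304 CPM in shNC, 306 and 290.4 in shHMGA2-1 and, in shHMGA2-2, 165 and 177 (-0.02 ± 0.06 SE, adjusted p = 0.86 and -0.82 ± 0.07 SE, adjusted p = 1.02e-10). PRDX1, the abundant cytosolic peroxiredoxin, rose in shHMGA2-2 (0.46 ± 0.06 SE, adjusted p = 4.63e-07), with 390.2 and 375 CPM in shNC, 349 and 355 in shHMGA2-1 and, in shHMGA2-2, 520.1 and 529. SOD1, the cytosolic superoxide dismutase, had 163 and 138 CPM in shNC, 128 and 135 in shHMGA2-1 and, in shHMGA2-2, 191 and 190.04. Its rise in shHMGA2-2 (0.34 ± 0.08 SE, adjusted p = 0.000443) had an adjusted p of 0.0637 without shNC replicate 2, and in shHMGA2-1 (-0.19 ± 0.08 SE, adjusted p = 0.0521) it passed as lower without shNC replicate 2 (0.0312) or shHMGA2-1 replicate 2 (0.015), with RLE scaling (0.0395) and with no filter (0.0273). SOD2, the mitochondrial enzyme, fell in shHMGA2-1 (-0.55 ± 0.09 SE, adjusted p = 1.77e-05) and was close to shNC in shHMGA2-2 (0.03 ± 0.08 SE, adjusted p = 0.783). SOD2 shares exon bases with WTAP on the other strand, which held 1280 to 1895 counts. CAT, catalase, was called higher in shHMGA2-1 (0.24 ± 0.09 SE, adjusted p = 0.0345), a call that did not pass in any of the 5 fits without shNC replicate 1 or 2, shHMGA2-1 replicate 2 or either shHMGA2-2 replicate (adjusted p from 0.0577 to 0.188) in DESeq2 (0.133), with no filter on low counts (0.0948) or with the replicate block (0.064). In shHMGA2-2 it passed as higher with upper quartile scaling (0.0251).

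Transcripts for iron storage and uptake fell together in both lines. Ferritin stores iron in a shell of heavy chains, with ferroxidase activity, and light chains, and the transferrin receptor TFRC brings iron in. Their mRNAs carry iron-responsive elements, hairpins whose loop begins CAGTG, which iron regulatory proteins bind when iron is scarce. Bound before the coding sequence of ferritin the element blocks translation, and bound behind that of TFRC it protects the mRNA from decay. A C, then 5 bases of any kind and CAGTGN, with 5 paired bases around the loop, G-T pairs allowed, were searched on the transcript strand in GENCODE version 29 and found once in the 5′ UTR of FTL and of FTH1 and 4 times in the 3′ UTR of TFRC. Anywhere in a protein-coding transcript they occurred in 291 of 19684 genes (1.48%). The matches (GRCh38) are shown because these elements bear on opposite outcomes for ferritin and its importer, with the 6 letters of the loop in capitals.
FTL, exon 1 (chr19:48965337-48965366, plus strand): cttgcttcaaCAGTGTttggacggaacaga
FTH1, exon 1 (chr11:61967571-61967600, minus strand): cctgcttcaaCAGTGCttggacggaacccg
TFRC, exon 19 (chr3:196050976-196051005, minus strand): ttatcggaagCAGTGCcttccataattatg
TFRC, exon 19 (chr3:196050572-196050601, minus strand): ttatcgggagCAGTGTcttccataatgtat
TFRC, exon 19 (chr3:196050507-196050536, minus strand): gtatcggagaCAGTGAtctccatatgttac
TFRC, exon 19 (chr3:196050460-196050489, minus strand): ttatcgggaaCAGTGTttcccataattttc

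FTL (ENSG00000087086, chromosome 19, 48965309 to 48966879, plus strand), the ferritin light chain, was the most abundant member, at 2899 and 2821 CPM in shNC, 1379 and 1191 in shHMGA2-1 and, in shHMGA2-2, 779 and 835. Its libraries stepped down without overlap, to a 2.23-fold lower level in shHMGA2-1 and a 3.54-fold lower level in shHMGA2-2 (-1.15 ± 0.06 SE, adjusted p = 6.45e-13 and -1.82 ± 0.06 SE, adjusted p = 1.82e-17). Among all genes of a library ordered by FPKM, FTL ranked 10 and 10 in shNC, 14 and 15 in shHMGA2-1 as against 17 and 17 in shHMGA2-2. FTH1, the heavy chain, had 667 and 679 CPM in shNC, 432 and 385 in shHMGA2-1 and, in shHMGA2-2, 266 and 271, and fell as well (-0.72 ± 0.06 SE, adjusted p = 2.41e-09 and -1.33 ± 0.06 SE, adjusted p = 8.24e-15), but less than the light chain, and the FPKM ratio of FTL to FTH1 was 10 and 9.56 in shNC, 7.35 and 7.12 in shHMGA2-1 as against 6.74 and 7.1 in shHMGA2-2. TFRC stood at 1156 and 1154 CPM in shNC, 837 and 879 in shHMGA2-1 and, in shHMGA2-2, 685 and 646, with log2 fold changes of -0.43 ± 0.06 (SE, adjusted p = 2e-06) and -0.80 ± 0.06 (SE, adjusted p = 1.6e-11). Storage and uptake transcripts thus both decreased, with the decrease larger in shHMGA2-2 for all 3 genes. The 25 FTH1 and 16 FTL pseudogenes of the table held at most 0.974% and 0.115% of their parent gene's counts, and reads that matched several copies may have been lost in counting.

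ACSL4 (ENSG00000068366, chromosome X, 109624244 to 109733403, minus strand), which activates arachidonic and adrenic acid for membrane phospholipids, fell in both lines. ACSL4 stood at 249 and 257 CPM in shNC, 139.6 and 172 in shHMGA2-1 and, in shHMGA2-2, 89.2 and 73.5, non-overlapping between all 3 lines. The log2 fold changes were -0.70 ± 0.09 (SE, adjusted p = 8.73e-07) and -1.64 ± 0.09 (SE, adjusted p = 1.29e-13), or 1.62-fold and 3.11-fold lower. AIFM2, the glutathione-independent protector of membranes, was at 47.3 and 49.8 CPM in shNC, 48.1 and 38.7 in shHMGA2-1 and, in shHMGA2-2, 46.7 and 46.7, and neither change passed the test (-0.16 ± 0.10 SE, adjusted p = 0.233 and -0.05 ± 0.10 SE, adjusted p = 0.66). Without shHMGA2-1 replicate 1 its adjusted p in shHMGA2-1 was 0.00699. Transcripts that favour ferroptosis and transcripts that oppose it were both among the genes that fell, with SLC7A11, ferritin and MGST1 on one side, ACSL4 and TFRC on the other, and GPX4 higher.

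The pumps that export glutathione conjugates differed in level. ABCC1 (MRP1) was at 131 and 139 CPM in shNC, 92.9 and 88.2 in shHMGA2-1 and, in shHMGA2-2, 75.3 and 72.2, and fell in both lines (-0.58 ± 0.07 SE, adjusted p = 1.31e-06 and -0.87 ± 0.08 SE, adjusted p = 4.68e-10). ABCC2 (MRP2) was low, at 5.72 and 6.4 CPM in shNC, 9.05 and 7.42 in shHMGA2-1 and, in shHMGA2-2, 1.48 and 3.38, and fell in shHMGA2-2 alone (-1.31 ± 0.26 SE, adjusted p = 0.000139). In shHMGA2-1 its libraries lay above those of shNC, a difference that did not pass the test (0.44 ± 0.22 SE, adjusted p = 0.127). The log2 fold change of ABCC2 in shHMGA2-2 was -2.04 without shHMGA2-2 replicate 2 and -0.84 without replicate 1.

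Ordered by FPKM in shNC, FTL led the set with 3143 ± 62.8 FPKM (SD, n = 2), followed by FTH1, TXN, TXNRD1, PRDX1 and NQO1 at 202 to 321. OSGIN1, GSTM3 and ABCC2 were lowest, at 2.47, 0.77 and 0.74 FPKM. Of the neighbouring pairs in this order, 25 did not overlap between libraries and 11 did, among them FTH1 and TXN, and TXNRD1 and PRDX1. FTL stayed first in all lines, whereas SLC7A11 went from rank 16 in shNC to 27 in shHMGA2-1 and 33 in shHMGA2-2. NQO1 went from rank 6 to 8 and 15. GSTP1 moved up from rank 15 to 10 and 4, and PRDX1 from 5 to 3 and 2.

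**Figure D4:**
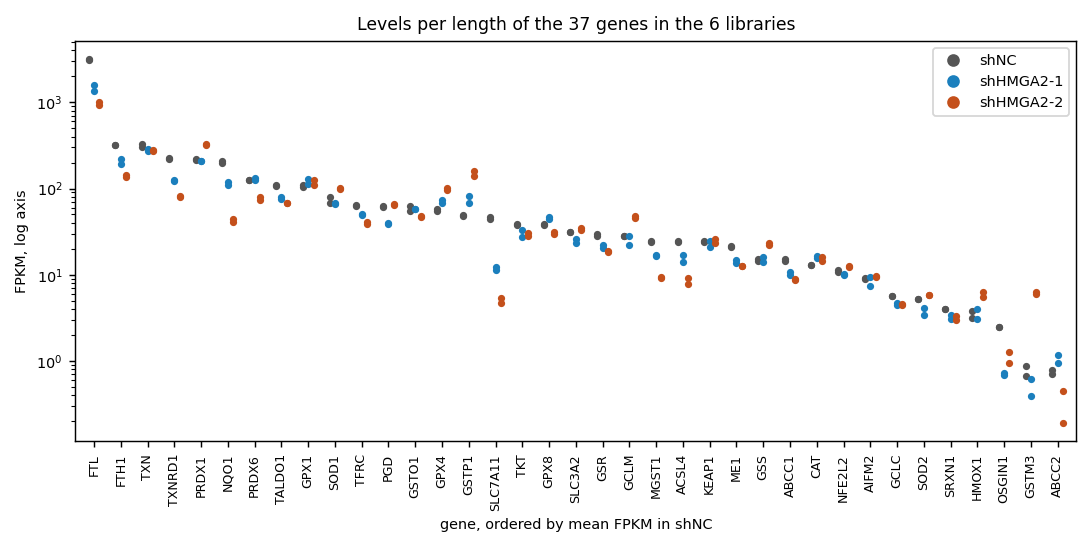
FPKM (vertical axis, log scale) of the 37 genes in each of the 6 libraries, ordered by the mean of the 2 shNC libraries. FTL lies above all other members in every library, and SLC7A11, NQO1 and GSTM3 show the widest spacing between lines.

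The knockdown lines were also compared directly, which leaves the shNC levels out of the difference. In shHMGA2-2 against shHMGA2-1, 16 members were lower and 13 higher (43.2% and 35.1%), beside 25.7% and 24.5% of all tested genes, and 3 were lower and 1 higher by 2-fold or more, beside 7.27% and 7.83%. The median log2 difference of the members was -0.10, against -0.00 over all genes. Of the 16 genes lower in both lines against shNC, 12 were lower again in shHMGA2-2, 1 (OSGIN1) was higher and 3 (TXN, GCLC and TKT) were not called. NQO1 and SLC7A11 were 2.77-fold and 2.42-fold lower in shHMGA2-2 than in shHMGA2-1, ABCC2 was 3.37-fold lower and GSTM3 11.8-fold higher. The 3 decreases were -1.47 ± 0.07 (SE, adjusted p = 3.87e-15), -1.28 ± 0.08 (SE, adjusted p = 3.59e-12) and -1.75 ± 0.25 (SE, adjusted p = 2.38e-06) on the log2 scale, and that of ABCC2 was -2.48 without shHMGA2-2 replicate 2. In DESeq2 the differences of OSGIN1 and ME1 between the lines did not pass (adjusted p = 0.0856 and 0.0988), and that of ME1 did not with upper quartile scaling (0.0892), the replicate block (0.0591) or no filter (0.0508) either. GCLM (0.83), GSTP1 (0.95), HMOX1 (0.69) and PGD (0.66) had the next largest log2 increases, each with an adjusted p of 0.000774 or less. NFE2L2 was higher in shHMGA2-2 too (0.25 ± 0.07 SE, adjusted p = 0.00373). The direct calls of OSGIN1, GSR and ME1 had adjusted p of 0.186, 0.12 and 0.178 without shHMGA2-2 replicate 2. OSGIN1 also lost its call without shHMGA2-1 replicate 1 (0.0601), and ME1 without shHMGA2-1 replicate 2 (0.112), shHMGA2-2 replicate 1 (0.0781) or either shNC replicate (0.0628 and 0.0666). TKT and AIFM2 gained a direct call without shHMGA2-1 replicate 2 (0.00573) and replicate 1 (0.0154).

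With the 4 knockdown libraries as a single class, in which the difference between the lines counts as error, 9 members were lower and 0 higher (24.3% of members and none), beside 2.92% and 2.34% of all tested genes. This fit has no term for line, so libraries of the same line count as separate samples and its p-values may be too small. The 9 lower members were SLC7A11, OSGIN1, FTL, TXNRD1, ME1, ABCC1, TALDO1, GSR and TKT. SLC7A11 had the largest decrease, a log2 fold change of -2.51 ± 0.42 (SE, adjusted p = 0.0267), then OSGIN1 (-1.55 ± 0.26 SE, adjusted p = 0.0254) and FTL (-1.45 ± 0.23 SE, adjusted p = 0.0234). NQO1, with its wide step between the knockdown lines, did not pass (-1.45 ± 0.48 SE, adjusted p = 0.134). At an unadjusted p under 0.05, edgeR had 17 lower and 2 higher members, and DESeq2 called 15 lower and 1 higher after adjustment. For the unadjusted counts of the pooled comparison, here and with the replicate block, the share of all tested genes is not given. They therefore describe the members only. Over all genes, DESeq2 called 1972 after adjustment, against 848 in edgeR. No member passed without shNC replicate 1 or without shNC replicate 2 (0 in edgeR, with 12 and 13 at an unadjusted p under 0.05). Calls over all genes also fell sharply with a single shNC library left. Leaving out shHMGA2-1 replicate 1 gave 5 called members, beside 466 of all tested genes. Leaving out replicate 1 or 2 of shHMGA2-2 gave 1 or 2, beside 315 and 356 of all tested genes.

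Other genes of these pathways were counted from 5 further lists, also chosen with earlier results of these data known. The lists had 155 genes in the table, of which 129 passed the filter on low counts. Of 25 other NRF2 targets tested, 16 fell and 2 rose in shHMGA2-1, and 17 fell and 3 rose in shHMGA2-2. Among the 4 of them that were lower by 2-fold or more in both lines, ALDH3A1, an aldehyde dehydrogenase, and ABCC3, another conjugate pump, had the largest mean log2 decrease over the lines. The shNC libraries held 61 and 40 counts of ALDH3A1, those of shHMGA2-1 12 and 10, and those of shHMGA2-2 0 and 1. ABCC3 stood at 15.6 and 17.1 CPM in shNC, 3.52 and 2.47 in shHMGA2-1 and, in shHMGA2-2, 1.42 and 2.12, with log2 fold changes of -2.44 ± 0.19 (SE, adjusted p = 3.89e-10) and -3.20 ± 0.21 (SE, adjusted p = 3.13e-12).

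Of 14 other regulators of NRF2, 4 fell and 3 rose in shHMGA2-1, and 6 fell and 6 rose in shHMGA2-2. Those are 28.6% and 21.4% in shHMGA2-1 and 42.9% each way in shHMGA2-2, beside 17.6% lower and 15.8% higher, and 29.2% and 29.5%, over all tested genes. None was changed 2-fold in the same direction in both lines. SQSTM1 and BACH1, named after their values were seen, are an autophagy receptor that sequesters KEAP1 and a repressor that competes for antioxidant response elements. SQSTM1 had 437 and 441 CPM in shNC, 234 and 207 in shHMGA2-1 and, in shHMGA2-2, 151 and 145 (-0.99 ± 0.07 SE, adjusted p = 2.85e-11 and -1.57 ± 0.07 SE, adjusted p = 1.15e-15). BACH1 had 83.5 and 88.3 CPM in shNC, 53.3 and 61.5 in shHMGA2-1 and, in shHMGA2-2, 31 and 33.4 (-0.58 ± 0.09 SE, adjusted p = 1.36e-05 and -1.41 ± 0.09 SE, adjusted p = 2.82e-12). Both fell stepwise without overlap between lines. MAFG and PALB2 also fell in both lines, whereas NFE2L3, BTRC and RBX1 rose in both. For NFE2L3 the log2 fold changes were 0.54 ± 0.07 (SE, adjusted p = 2.16e-06) in shHMGA2-1 and 1.56 ± 0.07 (SE, adjusted p = 3.18e-15) in shHMGA2-2.

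Of 28 other glutathione genes, 7 fell and 9 rose in shHMGA2-1, and 9 fell and 12 rose in shHMGA2-2. Lower calls were 25% and 32.1% of the list in the respective lines, beside 17.6% and 29.2% of all tested genes, and higher calls 32.1% and 42.9%, beside 15.8% and 29.5%. GGT7, of the gamma-glutamyltransferase family, rose and had 0.308 and 0.862 CPM in shNC, 4.38 and 3.65 in shHMGA2-1 and, in shHMGA2-2, 3.19 and 2.06 (2.77 ± 0.39 SE, adjusted p = 4.41e-06 and 2.15 ± 0.41 SE, adjusted p = 8.69e-05). GSTM2, a mu-class transferase, was counted 0 and 1 times in the shNC libraries, 6 and 4 times in those of shHMGA2-1 and 47 times in each of shHMGA2-2. The 21 other thioredoxin, peroxiredoxin and antioxidant genes had 1 lower, 8 higher and 12 not called in shHMGA2-1, and 3 lower, 14 higher and 4 not called in shHMGA2-2. Higher calls were 38.1% and 66.7% of that list in the respective lines, above the 15.8% and 29.5% of all tested genes. SOD3, the extracellular superoxide dismutase, rose from a low level, at 0.431 and 0.923 CPM in shNC, 3.34 and 1.89 in shHMGA2-1 and, in shHMGA2-2, 2.3 and 3.21 (1.94 ± 0.42 SE, adjusted p = 0.000788 and 2.02 ± 0.42 SE, adjusted p = 0.0002). Of 41 other iron and ferroptosis genes, 14 fell and 6 rose in shHMGA2-1, and 22 fell and 3 rose in shHMGA2-2. STEAP3, a ferrireductase of the transferrin cycle, stood at 97.6 and 98.6 CPM in shNC, 41.7 and 40.8 in shHMGA2-1 and, in shHMGA2-2, 31.3 and 33.5 (-1.25 ± 0.08 SE, adjusted p = 2.7e-11 and -1.60 ± 0.09 SE, adjusted p = 7.19e-14), and STEAP1, of the same family, at 29.2 and 34.1 CPM in shNC, 6.05 and 7.01 in shHMGA2-1 and, in shHMGA2-2, 3.6 and 3.96 (-2.28 ± 0.14 SE, adjusted p = 5.26e-12 and -3.06 ± 0.15 SE, adjusted p = 1.46e-14). Lower calls thus made up 64% and 68% of the NRF2 targets and 34.1% and 53.7% of the iron and ferroptosis genes in the respective lines, above their share of all tested genes, and 4.76% and 14.3% of the thioredoxin and antioxidant genes, below it. For the glutathione genes in shHMGA2-2 the share was near that of all tested genes.

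**Figure D5:**
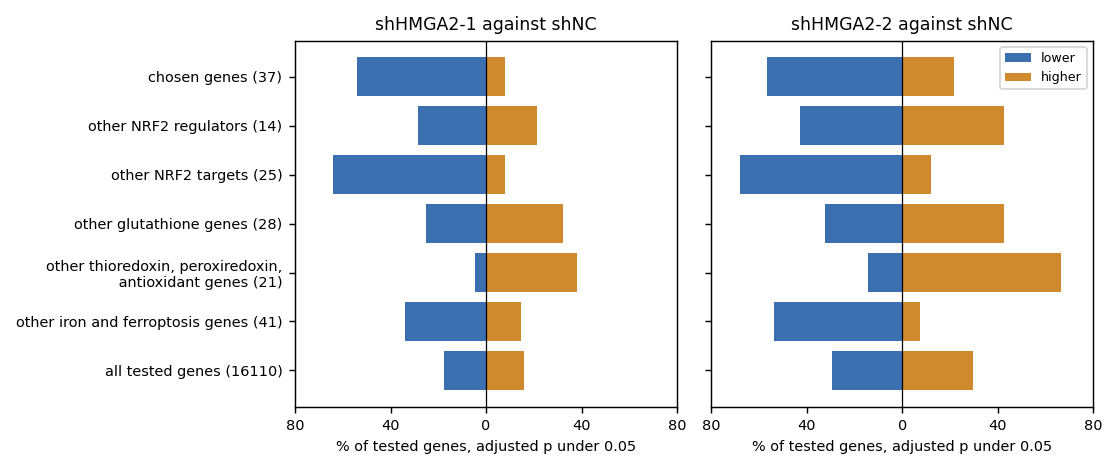
Percent of tested genes called lower (left of 0) or higher (right of 0) at an adjusted p under 0.05 in edgeR, for the 37 chosen genes, 5 further lists and all 16110 tested genes, with the number tested in brackets. In shHMGA2-2, 68% of the 25 other NRF2 targets are lower and 66.7% of the 21 thioredoxin, peroxiredoxin and antioxidant genes are higher, beside 29.2% and 29.5% of all genes.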

How the data were processed

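RNA-seq of MDA-MB-231 cells gave 6 libraries, 2 per line. The authors deposited raw counts per gene, without normalization, and FPKM values, which the authors made from counts, exonic length and library total. The submitters' processing notes name HISAT2 version 2.2.1, HTSeq version 0.6.1 and GRCh38.p13, with no strand setting or annotation. No sample column was left out. Gene coordinates are those of the deposited table.

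The members and lists were chosen with earlier results of these data known. Genes named with full values were members called with a 2-fold change in a comparison of lines, members fixed by name, and from each further list at most 2 genes that rose and 2 that fell most among those changed 2-fold in both lines. The counts were tested in edgeR version 4.0.16 (R version 4.3.3) with TMM (factors 0.958 to 1.05), filterByExpr and quasi-likelihood F tests, and p-values were adjusted over 16110 genes by Benjamini-Hochberg. All 6 libraries entered a model with 3 lines, and the pooled comparison a model with 2 classes (common coefficient of variation 0.0583 and 0.291). The study names DESeq2, which was run here (version 1.42.0) as an alternative. The standard error is the log2 fold change divided by the root of F. The 16110 genes passed a filter in which all 37 members passed. A count of 0 allows up to 3 counts, 0.172 to 0.185 CPM, for counting error only. Libraries of a line differed beyond sampling noise (chi-square per degree of freedom 2.03 to 6.21). Alternatives were RLE and upper quartile scaling, DESeq2, no filter, a mean FPKM of at least 1, the replicate number as a block, and each library left out with the same genes kept. The edgeR code was run on simulated counts for shHMGA2-2 against shNC. Motifs were searched with python version 3.11.15 in RefSeq promoters and GENCODE version 29.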

Additional observations from a re-analysis of the deposited data

Results flagged for a closer look

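A direct contrast between the knockdown lines in edgeR, past an adjusted p of 0.05 and 2-fold, marked 4 members as differing between shHMGA2-2 and shHMGA2-1. The log2 difference was -1.47 for NQO1, -1.28 for SLC7A11, -1.75 for ABCC2 and 3.56 for GSTM3, with adjusted p of 3.87e-15, 3.59e-12, 2.38e-06 and 3.77e-14. NQO1 and SLC7A11 were below shNC in both lines and lower in shHMGA2-2. ABCC2 and GSTM3 had low levels, at most 9.05 CPM, in shNC and shHMGA2-1. Groups of 2 libraries are too small for a test of single libraries that stand apart.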

How the results depend on the processing

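From edgeR to DESeq2, calls over all genes went from 5388 to 3780 in shHMGA2-1, from 9464 to 7707 in shHMGA2-2 and from 8095 to 6176 in the direct contrast. In shHMGA2-1 they also fell with any library left out except shHMGA2-1 replicate 2, without which they rose. The counts of members called against shNC in each line, and between the lines, kept within 1.5 times their value under every alternative run. With a library left out they were 19 to 26 of 37 in shHMGA2-1, 27 to 29 in shHMGA2-2 and 26 to 29 in the direct contrast. The pooled count of 9 became 16 (15 lower and 1 higher) in DESeq2 and ranged from 0 to 8 with a library left out. Over all genes the pooled calls also went from 848 to 1972 in DESeq2 and fell with any library left out. No single-gene call reversed. Over all members and alternatives, single-gene calls were lost 16 times and gained 17 times in shHMGA2-1, 6 and 2 times in shHMGA2-2, 13 and 2 times in the direct contrast, and 50 and 10 times in the pooled comparison, and the cause was not tested.

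The replicate numbers of the titles were used as a block in a further fit. Deviations of same-numbered libraries correlated by -0.0242 to 0.00364 between shNC and either knockdown line and by -0.178 between the knockdown lines. These values rest on a single difference between libraries per line, so they cannot show whether samples of different lines shared a batch. With the replicate block the counts were 22, 29 and 28, and the pooled count was 0 (16 lower and 2 higher at an unadjusted p under 0.05 in edgeR). Over all genes the pooled calls with the block were 152, against 848 without it. DESeq2 was run without a block only, with the pooled count of 16 given above.

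Upper quartile scaling shifted the median log2 fold change of all genes to 0.14 in shHMGA2-2 and 0.13 in the pooled comparison. The share of lower among all called genes went from 52.8% to 41.2% in shHMGA2-1 and from 55.5% to 44.3% in the pooled comparison, and the members' median stayed below 0 (-0.30 in shHMGA2-1, -0.34 in shHMGA2-2). With 2 libraries per line, low-count members such as OSGIN1, GSTM3, ABCC2 and HMOX1 carry the widest errors.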

Other observations

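GSTM1 and GGT5, named after their values were seen, had counts in some lines and 0 in others. GSTM1, a mu-class transferase, was counted 1 and 0 times in the shNC libraries, 0 times in each of shHMGA2-1 and 293 and 289 times in those of shHMGA2-2, at least 96.9-fold higher in shHMGA2-2 than in shHMGA2-1 against a floor of 3 counts per library. GSTM4, of the same class, stood at 7.38 and 8.49 CPM in shNC, 12 and 11 in shHMGA2-1 and, in shHMGA2-2, 18.8 and 17.3. GGT5, a gamma-glutamyltransferase, was counted 156 and 155 times in the shNC libraries, 158 and 124 times in those of shHMGA2-1 and 0 times in each of shHMGA2-2, at least 54.8-fold lower in shHMGA2-2 than in shNC. How reads shared by near-identical GSTM genes were counted is not given in the sources used here.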
